A study of Homo sapiens with 16 samples.

Results

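The promoter-proximal window was the first 1 kb downstream of the transcription start site (TSS) in an averaged profile of nascent RNA. It was taken by position alone and comprised 1000 of the 122001 positions in each of the 16 profiles, 1 profile per sample. The cells were HEK293T-rex, derived from human embryonic kidney and fitted with a repressor that doxycycline releases. All samples carried a constitutive shRNA against RECQL5 and an shRNA-resistant RECQL5 gene under a doxycycline-inducible promoter. In the wild-type (WT) samples doxycycline kept this gene on, and in the knockdown (KD) samples the cells had been without doxycycline for 4 days, so that the presence of the drug and of RECQL5 cannot be told apart. All cells were treated with DRB and processed before its removal (0 min) or 10, 25, or 40 min after it. Clones 15 and 18 gave 1 sample each for every genotype and time, so each group had n = 2 clones, and the 4 samples of one clone and genotype are called a series. The labels name these times as times of doxycycline, but their own treatment text and the study's methods place them after DRB removal. The labels give the DRB dose as 100 mM, where the study's methods give it in μM.

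RNA polymerase II (RNAPII) that has left a promoter halts shortly after initiation, held by the factors DSIF and NELF, until the kinase P-TEFb releases it into productive elongation. DRB inhibits P-TEFb, so newly initiated polymerases gather near the TSS while those already in gene bodies run off, and washing the drug away lets the held polymerases move on together. A high ratio of promoter-proximal to gene-body signal is the usual sign of paused polymerase. RECQL5 is a DNA helicase that can bind the polymerase. In DRB/GRO-seq, engaged polymerases extend their RNA with bromouridine in isolated nuclei, and the labeled RNA is sequenced.

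The value at each position was a mean normalized read depth over long genes, so no single gene can be read from it, and a change at every gene cannot be told apart from a larger change at some. Every value was a whole multiple of what 1 read contributes (within 6.4e-10 of a read), and the profiles held between 7686575 and 21968806 reads. The window itself held between 144331 and 1245857 reads. As the depth is a trimmed mean over genes, these counts stand for reads kept after trimming. Its 95% counting interval (exact Poisson) was at most 0.516% of the depth to either side in every sample. This was far smaller than most differences described here, which are therefore limited by the 2 clones and not by depth. The intervals of KD of clones 15 and 18 at 25 min overlapped, however, at 5.395 to 5.434 and 5.354 to 5.397. Such intervals cover counting error only, since copies of 1 molecule are not independent, and they leave out the effect of the trimming. Because each library was scaled to the same number of reads, less nascent RNA near promoters and more reads from elsewhere cannot be told apart. KD of clone 15 at 0 and 10 min stood apart from the other libraries in this window, and results that rest on these 2 samples are given with and without them.

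Under DRB, depth was higher in the window than upstream of it, over 1 to 5 kb, over 5 to 30 kb, or over 110 to 120 kb in each of the 4 samples. Its mean depth before release was 31.3 for WT clone 15 and 25.9 for WT clone 18. For KD it was 17.7 in clone 18 but 3.49 in clone 15. The last value was below all 3 others, which spanned 17.7 to 31.3. Of all the depth between the TSS and 120 kb, the window made up 14.6% and 12.0% in WT clones 15 and 18, and 1.70% and 8.20% in KD. In contrast, the depth over 110 to 120 kb lay between 1.56 and 1.69 in all 4 samples, so KD of clone 15 differed near the TSS and not in this far region.

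**Figure D1:**
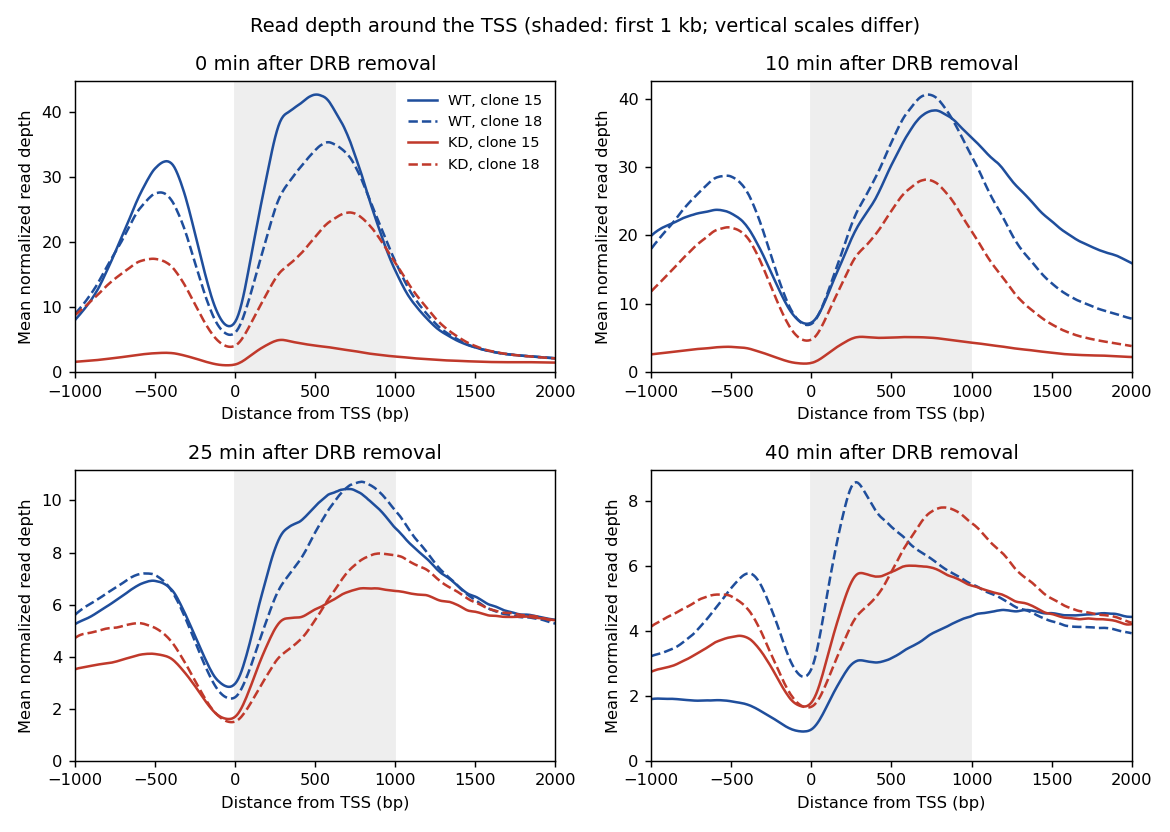
Mean normalized read depth (50 bp running mean) against distance from the TSS in bp, in 1 panel per time with its own vertical scale. Lines are single samples, WT in blue and KD in red, clone 15 solid and clone 18 dashed. The first 1 kb is shaded. WT of both clones peaks above 35 at 0 min, while at 40 min no sample exceeds 8.585 in the window.

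The position of the peak was taken as the highest 50 bp running mean in the window. At 0 min WT peaked 512 bp (clone 15) and 580 bp (clone 18) from the TSS, and KD 290 bp and 716 bp. The 4 samples thus covered 290 to 716 bp with no common order of WT and KD. Each read had been extended to 250 bp by the authors, so the peak of the depth is not the position of the polymerase itself. The peak height was 42.6 and 35.3 in WT of clones 15 and 18, and 4.95 and 24.5 in KD. The peak was narrow in all 4 samples. Its full width at 0.5 of its height was 783 bp and 827 bp in WT of clones 15 and 18, and 872 bp and 918 bp in KD, so the KD peak was the wider one in both clones, by 89 and 91 bp. The upstream flank reached 0.5 of the height at 126 and 161 bp in WT and at 92 and 201 bp in KD. Over the last 100 bp of the window the depth was down to 43.5% of the peak in WT of clone 15, 56.2% in WT of clone 18, 50.7% in KD of clone 15, and 76.2% in KD of clone 18.

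At 10 min after DRB removal, the window was still full. Its mean depth was 27.4 and 29.0 for WT clones 15 and 18, and 4.48 and 20.3 for KD. These are 87.5%, 112%, 128%, and 114% of the respective values at 0 min, so 3 of 4 series held a higher depth than before release. The mean change in log2 depth was 0.13, with an SD between samples of 1.44 at 0 min and 1.27 at 10 min (exact permutation test, two-sided, p = 0.743). What differed by then was the shape. WT peaked 774 bp (clone 15) and 723 bp (clone 18) from the TSS, 262 and 143 bp further from the TSS than at 0 min. KD peaked 311 and 715 bp from it, where the shifts were 21 bp and -1 bp. In KD of clone 15, however, the depth was nearly level, with 5.109 over 300 to 399 bp and 5.107 over 600 to 699 bp. Its peak position at 10 min is thus poorly defined, while its center of mass went from 487 to 537 bp. The mean shift over the 4 series was 106 bp, or 182 bp with a 200 bp running mean. The width at 0.5 of the height was 1432 and 1018 bp in WT and 1519 and 975 bp in KD. All 4 widths were above every width at 0 min. At the end of the window the depth now stood at 79.8% to 92.6% of the peak, against 43.5% to 76.2% before. In the adjoining 1 to 5 kb, WT depth went from 2.36 to 11.2 (clone 15) and from 2.48 to 6.69 (clone 18). KD depth went from 1.45 to 1.97 and from 2.57 to 3.73. This adjoining region thus gained more depth in WT than in KD in both clones, which was not tested.

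Between 10 and 25 min most of the window emptied in 3 of 4 series. At 25 min the depth was 8.63 and 7.99 in WT of clones 15 and 18, and 5.41 and 5.38 in KD. This was 27.6%, 30.8%, and 30.4% of the 0 min depth in both WT series and in KD of clone 18. These 3 series differed in it by little, while KD of clone 15 stood at 155% of its own low starting value. At 40 min the depths were 3.19 and 6.55 in WT of clones 15 and 18, and 5.25 and 5.57 in KD. Relative to 0 min, that is 10.2% and 25.2% in WT, and 151% and 31.5% in KD of clones 15 and 18.

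**Figure D2:**
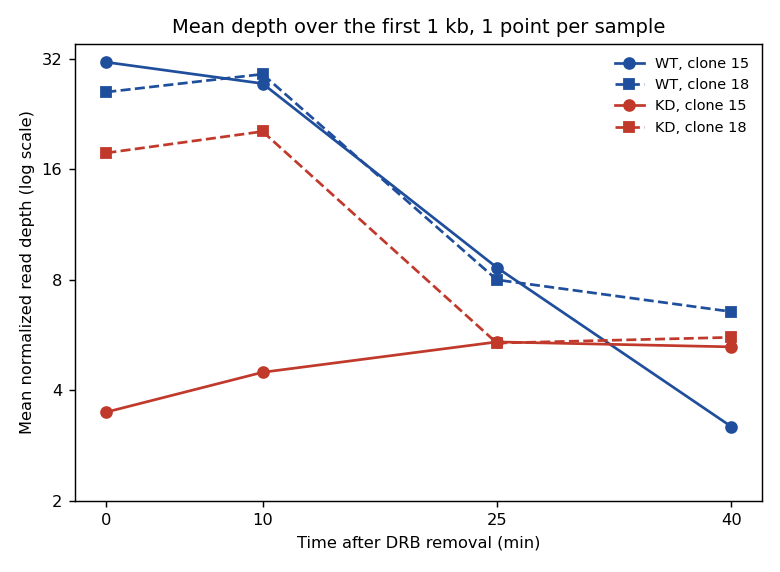
Mean normalized read depth over the first 1 kb (logarithmic axis) against time after DRB removal in min, 1 point per sample. Lines join the samples of one clone and genotype, WT in blue and KD in red, clone 15 solid and clone 18 dashed. The samples span 3.49 to 31.3 at 0 min and 5.38 to 8.63 at 25 min.

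Averaged over the 4 series, the log2 depth of the window at 25 min differed from that at 0 min by -1.16 (exact permutation test, two-sided, p = 0.171, adjusted p = 0.257 over 15 comparisons). At 40 min it differed by -1.59 (exact permutation test, p = 0.114, adjusted p = 0.214). Neither passed the threshold of 0.05, and in each only 3 of 4 series were lower. The tests over time treat the 4 samples of each time as independent, although they come from the same 2 clones, and do not use the series. Without KD of clone 15 at 0 min, the differences were -1.86 and -2.29, with no overlap between the times (exact permutation test, p = 0.0286 for both, the minimum for groups of 4 and 3, adjusted p = 0.0714). That sample was set aside for its low window depth, the value compared here, so this p-value cannot count as evidence. The peak height gave the same picture. It was 10.4 and 10.7 in WT and 6.63 and 7.96 in KD at 25 min, and 4.46 and 8.58 in WT and 6.01 and 7.81 in KD at 40 min. Its log2 change from 0 min was -1.24 and -1.67 (exact permutation test, p = 0.143 and 0.114, adjusted p = 0.238 and 0.214). Without KD of clone 15 at 0 min it was -1.93 and -2.35 (exact permutation test, p = 0.0286 for both, adjusted p = 0.0714). The choice of sample limits this p-value in the same way.

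The depth removed from the window was small beside the depth that appeared in the gene body. In WT of clone 15, the change from 0 to 25 min summed to -22.6 depth times kb in the first 1 kb and to 78.4 over 5 to 30 kb. In WT of clone 18 these sums were -17.9 and 72.7, and in KD of clone 18 they were -12.3 and 63.7. In KD of clone 15 the gene body gained 60.6 while the first 1 kb gained 1.93. Thus the sample with the lowest promoter-proximal depth under DRB gained nearly as much gene-body depth as KD of clone 18.

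From 25 min on, the depth did not fall off on the downstream side of the maximum in every sample. The highest 50 bp mean at 25 min was found 714 and 791 bp from the TSS for WT clones 15 and 18, and 800 and 906 bp from it for KD, further downstream than at 0 min in 4 of 4 series. The mean shift was 278 bp (exact permutation test, p = 0.0571, adjusted p = 0.143). In KD the depth at the end of the window was 98.99% and 99.6% of the peak, close to level. The downstream flank came down to 0.5 of the peak height within 5 kb in WT, with widths of 2001 and 1755 bp, but in neither KD sample. In KD, however, the peak heights were 6.63 and 7.96, so that 0.5 of them lay near the gene-body depths of 3.89 and 3.87. In WT, with heights of 10.4 and 10.7, this level lay above the gene-body depths of 4.33 and 4.16. A width at this level thus depends on the height of the peak relative to the gene body. At 40 min the maxima fell on the last position of the window for WT clone 15, on 280 bp for WT clone 18, and on 610 and 824 bp for KD. The depth of WT of clone 15 was thus still climbing at the end of the window, whereas WT of clone 18 had an early peak with a width of 1439 bp. All widths at 10, 25, and 40 min exceeded all of those at 0 min (exact permutation test, two-sided, p = 0.0286 at each time, the smallest for 4 against 4; adjusted p = 0.0857). At a lower level on the flank, 0.25 of the peak height, the widths at 0 min overlapped with those at each later time (exact permutation test, p = 0.457, 0.143, and 0.114 at 10, 25, and 40 min). In KD of clone 15 at 0 min, with a height of 4.95, this level lay below the gene-body depth of 1.47. A width at that level can run far into the gene body. In the other samples at 0 min the level lay above the gene-body depth.

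**Figure D3:**
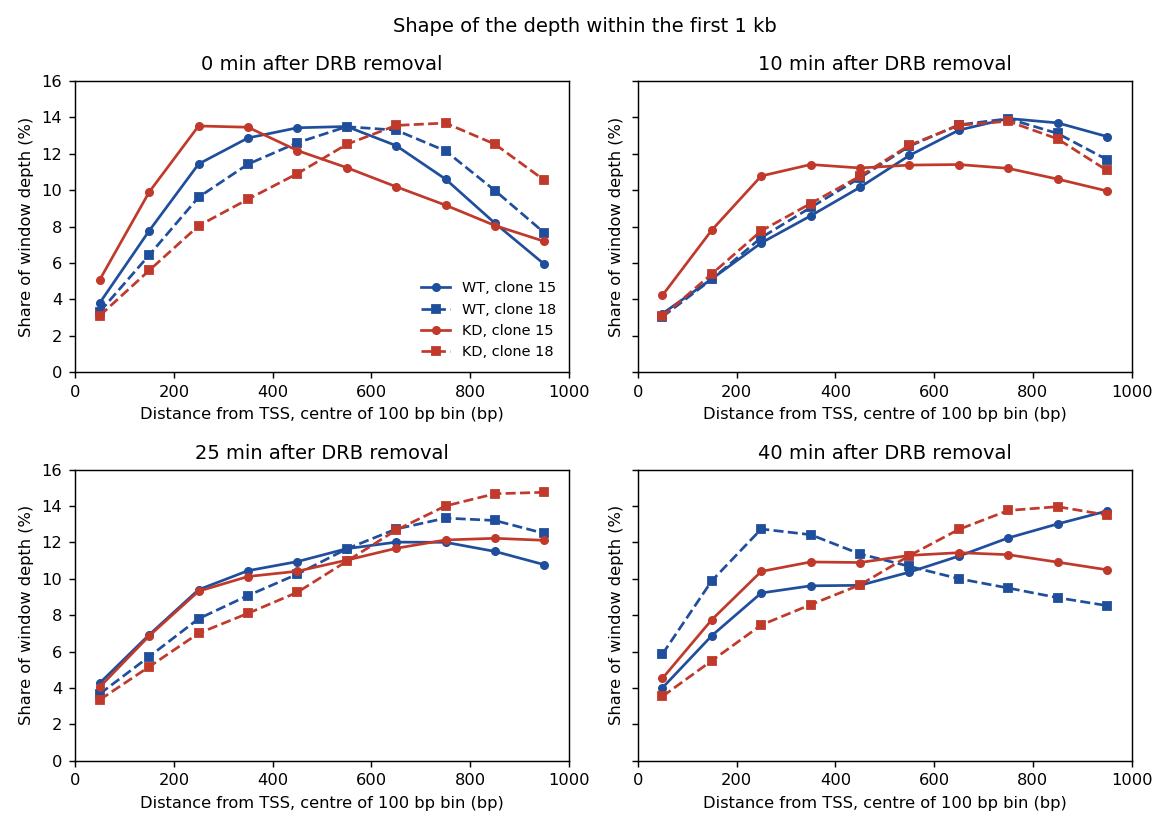
Share of the depth of the first 1 kb (percent) that fell in each 100 bp bin, against the distance of the bin centre from the TSS in bp, in 1 panel per time. Lines are single samples, WT in blue and KD in red, clone 15 solid and clone 18 dashed. At 0 min the highest share is 13.5% in the bin from 200 bp in KD of clone 15 and 13.7% in the bin from 700 bp in KD of clone 18.

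The distribution of depth within the window also varied between samples. The first 500 bp held 49.3% and 43.4% of the window's depth at 0 min in WT of clones 15 and 18, and 54.1% and 37.1% in KD. At 10 min they held 34.2% and 35.3% in WT, and 45.4% and 36.3% in KD. KD of clone 15 thus had the largest share of its depth in the first 500 bp at both early times, although its depth there, 3.78 and 4.07, was the lowest of the 4 samples. At 25 min the shares were 42.0% and 36.6% in WT, and 40.8% and 32.9% in KD. At 40 min the highest share of that time, 52.3%, was found in WT of clone 18, against 39.4% in WT of clone 15 and 44.5% and 34.8% in KD of clones 15 and 18. The center of mass of the depth, taken over the window alone, lay between 487 and 610 bp over all 16 samples. The ends of the window restrict how far it can move, so depth that left the window does not count in it.

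The depth over the first 1 kb was next divided by the mean depth over 5 to 30 kb, a pausing-like ratio that does not depend on the scaling of a library. At 0 min this gene-body depth was 1.20 to 1.47, below the 1.56 to 1.69 found over 110 to 120 kb. At 10 min it was 1.04 to 1.48, against 1.55 to 1.68 there. Ratios at these times, and fold changes from them, thus divide by a depth no higher than that far downstream. At 0 min the ratio was 26.2 and 20.7 in WT of clones 15 and 18, and 2.38 and 13.4 in KD. At 10 min it was 26.3 and 26.1 in WT, with an SD of only 0.139 between the clones, and 3.02 and 16.8 in KD. At 25 min it was 1.99 and 1.92 in WT and 1.39 in both KD samples. At 40 min it was 0.797 and 2.04 in WT, and 1.48 and 1.65 in KD. WT of clone 15 at 40 min was the single sample with less depth per base near the TSS than in the gene body.

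**Figure D4:**
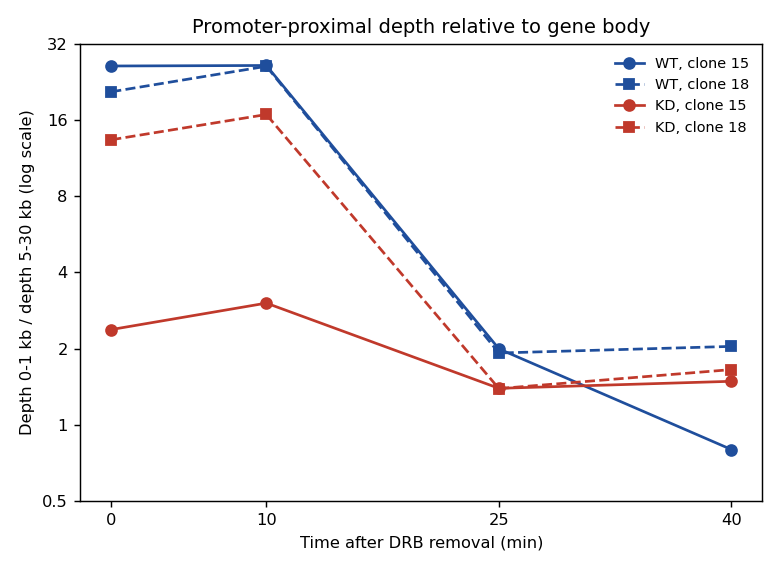
Ratio of the mean depth over the first 1 kb to that over 5 to 30 kb (logarithmic axis) against time after DRB removal in min, 1 point per sample. Lines join the samples of one clone and genotype, WT in blue and KD in red, clone 15 solid and clone 18 dashed. All ratios at 25 and 40 min lie at or below 2.04, and all at 0 and 10 min at or above 2.38.

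The pausing-like ratio at 25 min was below that at 0 min in 4 of 4 series, with a mean log2 difference of -2.80 (SD between samples 1.57 at 0 min and 0.29 at 25 min; exact permutation test, two-sided, p = 0.0286, adjusted p = 0.0857). At 40 min the difference was -3.02, again with no overlap between the times (exact permutation test, p = 0.0286, adjusted p = 0.0857). These unadjusted values are the smallest that the design allows, and no comparison over time passed the threshold after adjustment over all 15. Without KD of clone 15 at 0 min, the differences were -3.55 and -3.78. By series, the ratio at 25 min was lower 13.1-fold and 10.8-fold in WT of clones 15 and 18, and 1.71-fold and 9.64-fold in KD. The gene-body depth went from 1.20 and 1.25 at 0 min to 4.33 and 4.16 at 25 min in WT, and from 1.47 and 1.32 to 3.89 and 3.87 in KD. In both WT series and in KD of clone 18 the window depth was also lower at 25 min, whereas in KD of clone 15 it was higher and the lower ratio came from the gene body alone. At 10 min the gene-body depth was 1.04 and 1.11 in WT and 1.48 and 1.20 in KD, and the ratio differed from that at 0 min by 0.26 on the log2 scale (exact permutation test, p = 0.629, adjusted p = 0.725).

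The comparison of KD with WT asks how the promoter-proximal polymerase signal depends on RECQL5. The window depth was lower in KD than in WT in 7 of 8 pairs of the same clone and time. At 0 min KD held 11.1% of the WT depth in clone 15 and 68.3% in clone 18. At 10 min it held 16.4% and 69.8%, and at 25 min 62.7% and 67.3%. The exception was clone 15 at 40 min, where KD held 165%, with 85.1% in clone 18. In clone 18 the deficit thus kept a steady size from 0 to 25 min, with log2 ratios of KD to WT of -0.55, -0.52, and -0.57, while in clone 15 they were -3.16, -2.61, and -0.67. At 25 min both clones lay close together and the WT and KD samples did not overlap, with 8.31 ± 0.452 in WT and 5.39 ± 0.0276 in KD (SD, n = 2). With 2 samples against 2, however, no difference at 1 time can reach the threshold (exact permutation test, two-sided, p = 0.333 at 0, 10, and 25 min, the smallest possible, and p = 1 at 40 min).

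Across all times, the mean log2 difference of KD from WT in window depth was -0.95 (SD of the 8 pair differences 1.28). When WT and KD were permuted within each time, this gave p = 0.0293 (exact permutation test, two-sided, over all assignments), and adjusted p = 0.0617 over the 5 measures tested. The peak height differed by -0.98, also lower in 7 of 8 pairs (exact permutation test, p = 0.0216, adjusted p = 0.0617). The pausing-like ratio differed by -1.03, lower in 7 of 8 pairs (exact permutation test, p = 0.037, adjusted p = 0.0617). None of them passed the threshold after adjustment. These p-values treat the times as independent, although all of them come from the same 2 clones, and they do not use the pairing by clone. A large share of these differences came from KD of clone 15 at 0 and 10 min. Without these 2 samples, the differences were -0.39 for the window depth, -0.39 for the peak height, and -0.41 for the ratio (exact permutation test, p = 0.071, 0.0586, and 0.111). By pairs, the 4 of clone 18 had a mean log2 difference in depth of -0.47 and the 4 of clone 15 of -1.43. The peak position did not show an order, with KD further downstream in 4 of 8 pairs (mean -25.1 bp, exact permutation test, p = 0.824). The width was larger in KD in 6 of 8 pairs, with a mean log2 difference of 0.95 (exact permutation test, p = 0.336). This difference was -0.32 when the width was measured above the upstream depth, and widths at 0.5 of the height also depend on the peak height.

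Other regions of the same profiles were compared with the window. The 1 kb upstream of the TSS, where divergent antisense transcription from the same promoters can be found, behaved much like the window. Since the strand counted is not given, whether its depth is antisense is not known. Its depth was lower in KD in 7 of 8 pairs, with log2 ratios of -3.21, -2.72, -0.72, and 0.91 in clone 15 and -0.53, -0.48, -0.45, and -0.06 in clone 18 at 0, 10, 25, and 40 min. In the adjoining 1 to 5 kb KD was lower in 5 of 8 pairs, and over 5 to 30 kb in 3 of 8. Over 110 to 120 kb, where the log2 ratios lay between -0.06 and 0.10, it was lower in 3 of 8. In WT the 25 min depth over 1 to 5 kb was 5.18 in both clones and in KD it was 5.11 and 5.21. Over 1 to 2 kb, however, the 25 min depth was 6.62 and 6.66 in WT and 5.87 and 6.35 in KD, so the lower depth of KD continued past the window in both clones. In the first 100 bp after the window it was 8.62 and 9.21 in WT and 6.48 and 7.79 in KD.

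Within the window, the difference of KD from WT was not the same at every distance. In clone 15 at 0 min, the log2 ratio ranged over the 10 bins of 100 bp from -2.75 in the first bin to -3.45 in the bin from 600 bp. At 10 min it ran from -2.00 in the bin from 100 bp to -2.99 in the last bin. In clone 18 at 0 min it was lowest in the bin from 300 bp, at -0.82, and near 0 at the end of the window, at -0.09. At 10 min it was almost flat there, between -0.44 and -0.59. At 25 min KD lay below WT in 10 of 10 bins in both clones, with -0.50 to -0.75 in clone 15 and -0.33 to -0.74 in clone 18, and least so in the last bin in both. At 40 min clone 15 had KD above WT in 10 of 10 bins, by 0.33 to 0.91. Clone 18 changed sign within the window, from -1.08 in the bin from 100 bp to 0.43 in the last bin, with KD below WT in 6 of 10 bins. Neighboring bins share reads of 250 bp and are not independent.

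**Figure D5:**
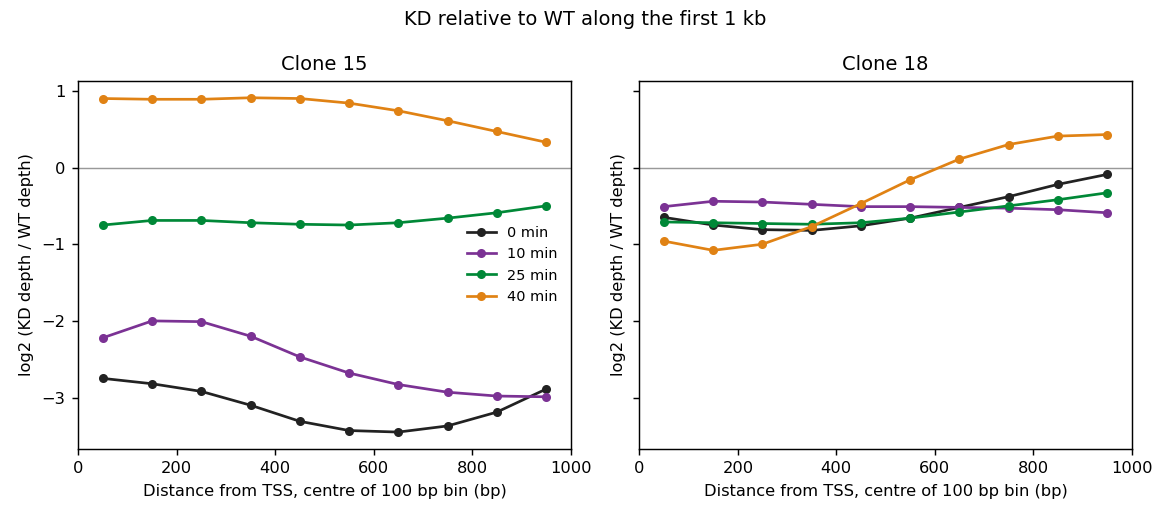
Log2 ratio of the KD to the WT depth in each 100 bp bin of the first 1 kb, against the distance of the bin centre from the TSS in bp, for clone 15 (left) and clone 18 (right). Colors mark the time after DRB removal, and the gray line marks equal depth. At 25 min both clones lie between -0.33 and -0.75, while at 40 min clone 15 lies above 0 throughout.

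The clones differed most where a single library stood apart. The depth of clone 18 relative to clone 15 was 0.829, 1.06, 0.926, and 2.06 in WT at 0, 10, 25, and 40 min. In KD it was 5.08, 4.53, 0.993, and 1.06. The mean log2 difference of 0.67 over the 8 pairs, with clone 18 higher in 5, was not past the threshold (exact sign-flip permutation test, two-sided, p = 0.188, adjusted p = 0.188 over 2 measures). The pausing-like ratio differed by 0.76, with clone 18 higher in 4 of 8 pairs (exact sign-flip permutation test, p = 0.188, adjusted p = 0.188). Without KD of clone 15 at 0 and 10 min, the mean difference was 0.14 for the depth and 0.18 for the ratio. The peak was higher in clone 18 in 7 of 8 pairs and lay further downstream in 6 of 8.

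The depth just at the TSS formed a trough between the upstream and the downstream peak. The lowest 50 bp mean within 300 bp of the TSS lay between -51 and -23 bp in all 16 samples. It was 7.05 and 5.73 in WT of clones 15 and 18 at 0 min, and 1.04 and 3.88 in KD. The downstream peak exceeded it by 3.32-fold to 6.32-fold over all samples. At 0 min the upstream peak of WT lay at -429 and -470 bp and that of KD at -437 and -516 bp, with heights of 32.4 and 27.6 in WT and 2.96 and 17.4 in KD. Although the window depth varied 9.82-fold over the 16 samples, its ratio to the depth of the upstream 1 kb stayed between 1.31 and 1.98. The sample with the low window, KD of clone 15 at 0 min, had a ratio of 1.64, within the range of the others, so that both sides of the TSS were low there together.

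The sequence under the window was described from the GRCh37 assembly (the same build as hg19) and GENCODE release 44, a newer annotation than that of the study. No sequence is printed because each value is an average over many TSSs and none of them carries it. The longest coding transcript was taken for each of the 8888 genes where it spanned 30 kb or more, and the median length of the first exon was 201 bp (quartiles 119 and 347 bp). The first exon ended within the window in 96.9% of these genes. The window was therefore largely first intron, with 28.7% of its positions exonic on average. The exonic share was 94.1% over the first 100 bp, 40.3% from 200 to 299 bp, 12.8% from 500 to 599 bp, and 5.51% over the last 100 bp. The peaks at 512 to 774 bp in WT at 0 and 10 min, and at 716 and 715 bp in KD of clone 18, thus lay where most of these genes were intronic. The peaks of KD of clone 15 at 290 and 311 bp and of WT of clone 18 at 40 min at 280 bp lay where more of them were exonic. Even there most were intronic, with 40.3% exonic from 200 to 299 bp and 26.1% from 300 to 399 bp. In KD of clone 15 at 10 min the depth from 600 to 699 bp was nearly as high as from 300 to 399 bp. The study's methods report a low level of stable mRNA in the samples and left exons out when calling wave fronts. Whether such reads add to these peaks was not tested.

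Base composition changed steeply across the window. The GC content was 65.0% over the first 100 bp and 48.9% over the last 100 bp, and the observed-to-expected ratio of CpG went from 0.848 to 0.535, as in promoters that lie in CpG islands. The share of T in the transcribed orientation, where bromouridine can be built in, went from 17.8% to 27.1%. Short motifs were counted on the sense strand, which reads as the RNA does, and on either strand of the window. The GC box GGGCGG, the site of the activator Sp1, was found on either strand in 71.0% of the genes, against 29.3% for the next 1 kb and 15.7% for the 1 kb that starts 5 kb from the TSS. The 5′ splice site motif GGTAAG was on the sense strand in 27.7%, against 15.9% and 14.1%. The poly(A) signal AATAAA showed the opposite, with 23.4% on the sense strand against 43.6% and 48.7%. So did TATAAA, the core of the TATA box, with 15.6% against 32.3% and 38.5%. AATAAA and TATAAA share their last 5 letters but cannot match at the same place, and a match describes the letters only.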

How the data were processed

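Per the study's methods and the submitters' processing notes, the authors processed Illumina reads with CASAVA 1.8.2 and aligned them to hg19 with BWA 0.5.9, discarded reads from rRNA genes and from regions of poor mappability, lengthened each read to 250 bp, brought all libraries to 1 common read number, and took a trimmed mean of the depth at each position over long protein-coding genes. The deposited signal is this normalized coverage, 1 value per position. The strand counted is not given in the sources used here. The extension to 250 bp was also seen in the values of 16 of 16 profiles and was used to turn depth into reads. Window depth and ratio were compared as log2 values, with exact permutation tests and Benjamini-Hochberg adjustment over the 15 comparisons over time, the 5 of KD with WT over all times, and the 2 of clones. Widths were compared as log2 values and followed outward from the peak beyond the window where needed. KD and WT of the same number are the same clone, a pairing taken from the labels. The clone deviations of WT and KD over 10 bins had correlations of 0.96, -0.17, 1.00, and -0.98 at 0, 10, 25, and 40 min. Neighboring bins share reads and trace smooth curves, so these correlations cannot test the pairing. On 20 simulated profiles, each with 1 peak on a level background, the peak position was recovered within 13 bp and the width within 5 bp. Profiles that stay near level past the peak, as in several samples at 25 and 40 min, were not simulated, so this accuracy does not extend to them. No gene is named because the profiles hold none, so the level of RECQL5 itself was not analysed here. Whether dishes were separate cultures beyond 1 dish per time is not stated, and the p-values measure the spread between these samples only. The window, lists and alternatives were chosen with earlier results of these data known. Python 3.11.15, numpy 2.4.6, pandas 2.3.3, scipy 1.17.1, and matplotlib 3.10.9 were used.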

Additional observations from a re-analysis of the deposited data

Results flagged for a closer look

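At 40 min, KD differed from WT in opposite directions in the clones. For the log2 window depth the difference was 0.72 in clone 15 and -0.23 in clone 18, so that clone 15 exceeded clone 18 by 0.95. For the peak height it was 0.43 and -0.14, a gap of 0.57, and for the pausing-like ratio 0.90 and -0.30, a gap of 1.20. The WT depths of the clones at that time were 3.19 and 6.55, while the KD depths were 5.25 and 5.57, so the clones were further apart in WT than in KD. The peak position also moved in opposite directions, by -222 and 136 bp at 0 min (clone 15 less clone 18, -358 bp) and by -389 and 544 bp at 40 min (-933 bp), where the WT maximum of clone 15 lay at the last position of the window. The width differed by 87 and -43 bp at 10 min (130 bp) and by -13934 and 873 bp at 40 min (-14807 bp), the latter because 0.5 of the peak height was reached only far into the gene body in both samples of clone 15. Each clone gave 1 pair per time, so whether the clones differed was not tested.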

How the results depend on the processing

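No comparison passed the threshold of 0.05 after adjustment, and none did so under any of 16 other settings and 2 more chosen after seeing the data, where the smallest adjusted p was 0.0514. Of 243 values under alternatives, 226 kept their direction. With the clone as a replicate block (exact sign-flip permutation test over pairs) the mean differences stay the same by construction, for example -0.95 in window depth of KD against WT over all times (p = 0.0547) and -2.80 in the ratio at 25 min (p = 0.125, the smallest for 4 pairs), and no call changed. The values that turned direction were mostly those near 0. At 10 min against 0 min, the log2 depth of 0.13 became -0.57 without KD of clone 15 at 0 min, -0.18 with the upstream depth subtracted, and -0.15 over the first 500 bp. The peak height of 0.08 became -0.61 without that sample and the ratio of 0.26 became -0.50, or -0.024 over the first 500 bp. The KD minus WT peak position of -25.1 bp became 28.1 bp without KD of clone 15 at 0 min, 25.4 bp without it at 10 min, 78.6 bp without both, 31.1 bp with a 200 bp running mean, and 6.01 bp for the center of mass. The KD minus WT width of 0.95 became -0.32 when measured above the upstream depth. The cause was not tested. Leaving out either clone, or KD of clone 15 at 0 or at 10 min, gave ranges of -0.57 to 0.75 for the depth, -0.61 to 0.77 for the peak height, and -0.50 to 0.98 for the ratio at 10 min (the peak height was -0.047 without clone 18), -96 to 404 bp for the peak position at 40 min, -1.86 to -0.61 for the depth at 25 min, -1.43 to -0.47 for KD against WT in depth, -247 to 197 bp in peak position, and -0.23 to 0.72 in depth and -0.30 to 0.90 in ratio at 40 min. Counting error was at most 0.516% of the window depth in any sample.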
